A study of Mus musculus with 16 samples.

Results

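The genes described here are a group of 9 named for scavenger receptors of amyloid and lipoproteins: Msr1, Cd36, Scarb1, Cd68, Cd14, Olr1, Colec12, Scarf1 and Cd5l. Cd5l encodes a secreted protein and is called a receptor below only as a member of this group. The 9 genes were taken by symbol from the 55385 genes listed in a table of read counts. All 9 passed a filter on low counts that left 14513 genes. RNA of CD11b+ brain cells from female mice at 20 weeks of age was sequenced in 16 libraries, 4 from each of 4 genotypes. WT mice carry neither the transgenes nor the deletion. Card9-/- mice carry a germline deletion of Card9, which encodes an adaptor protein of innate immune signaling. 5xFAD mice express transgenes of human origin that hold familial Alzheimer's disease mutations and are driven in neurons by the Thy1 promoter, and these mice deposit amyloid in the brain. Card9-/-5xFAD mice carry both. No treatment is given for any group, and all brains were freed of meninges and choroid plexus before cells were sorted with magnetic beads. The labels number the libraries within a genotype and do not say whether each came from a separate mouse, so p-values measure only the spread between these libraries.

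Scavenger receptors are surface proteins of macrophages and microglia, and each binds a wide range of charged ligands that includes oxidized lipoproteins, apoptotic cells, microbial products and fibrillar amyloid. Several carry bound material into the cell for degradation in lysosomes. Others, such as CD36 and CD14, also pass a signal to Toll-like receptors at the membrane. In the brain, MSR1 and CD36 are known as receptors through which microglia take hold of fibrillar amyloid, and CD68 is the usual stain for microglia with many lysosomes.

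Between 2970148 and 19333325 reads per library were counted on genes (median 7944265), and values are given as CPM, counts scaled to the size of the library with TMM factors. Markers of microglia (10 genes, including P2ry12 and Tmem119) were all detected in every genotype, with a summed level of 14093 to 37332 CPM. The lowest sum of each genotype was 14408 CPM in WT replicate 1, 16341 CPM in Card9-/- replicate 4, 15529 CPM in 5xFAD replicate 1 and 14093 CPM in Card9-/-5xFAD replicate 4. The highest neutrophil sum of each genotype came from the same 4 libraries (3623, 6322, 2106 and 5988 CPM). The summed level of 9 markers of border-associated macrophages ran from 1009 to 1952 CPM in the 8 libraries without transgenes, from 626 to 860 CPM in 5xFAD and from 434 to 1839 CPM in Card9-/-5xFAD. Card9 itself was counted in every library, at 13.6 to 51.3 CPM in WT, 16.7 to 34.8 CPM in those labelled Card9-/-, 15.6 to 33.5 CPM in 5xFAD and 9.73 to 33.7 CPM in those labelled Card9-/-5xFAD. The ranges of the deletion groups overlap those of their controls, so every Card9 comparison rests on the labels.

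Levels per length of exon (CPM per kb of the annotated exons) were ordered by the mean of all 16 libraries, an order that not every genotype followed. Cd68, a lysosomal glycoprotein, stood at 1859 CPM per kb, and Cd14, the surface coreceptor that hands lipopolysaccharide to TLR4, at 474 CPM per kb. The order continued with Cd36, the class B receptor for oxidized LDL and long-chain fatty acids, at 11.05 CPM per kb, Msr1, the class A receptor for modified LDL, at 7.08 CPM per kb, and Scarb1, the HDL receptor, at 5.74 CPM per kb. Colec12, a collectin-type class A receptor, reached 1.35 CPM per kb, and the endothelial receptor Scarf1 reached 0.640 CPM per kb. The last places were held by Cd5l, a secreted protein that macrophages make, at 0.613 CPM per kb and Olr1, the receptor LOX-1, at 0.422 CPM per kb. Neighbours could be parted only in places. The lowest Cd68 value of each genotype exceeded the highest Cd14 value of the same genotype, and Cd14 exceeded all of the lower 7. In WT, Cd36 ran from 6.62 to 21.8 CPM per kb, Msr1 from 5.19 to 8.66 and Scarb1 from 2.53 to 5.54, so each overlapped its neighbour while Cd36 and Scarb1 did not overlap. In Card9-/-5xFAD the means of Cd36 (6.76), Msr1 (6.90) and Scarb1 (6.90) lay together, and in 5xFAD Scarb1 (5.64) was above Msr1 (4.34) and Olr1 (0.476) above Scarf1 (0.388) and Cd5l (0.356), with overlapping ranges. Scarb1 exceeded Colec12 in every library of the same genotype, and the ranges of Scarf1, Cd5l and Olr1 overlapped in every genotype.

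**Figure D1:**
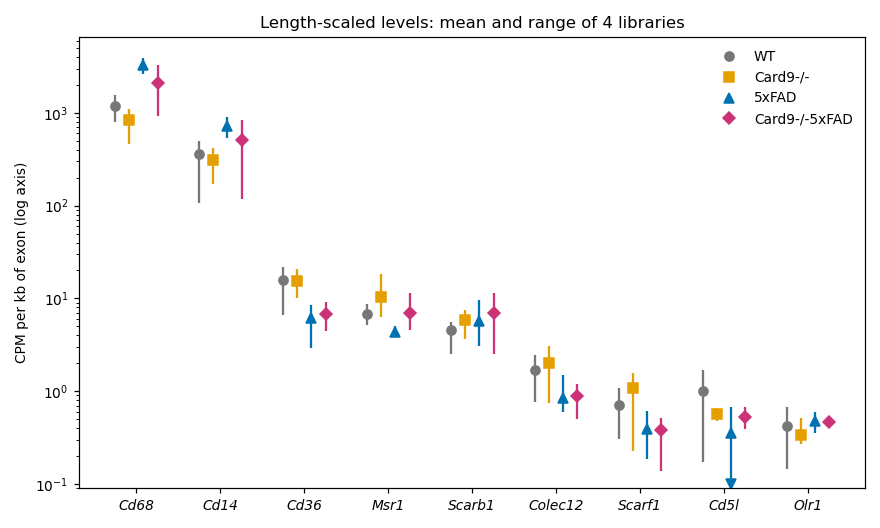
Level of each receptor per length (CPM per kb of exon, log axis) by genotype, with the mean of 4 libraries as a symbol and their range as a line. Cd68 (1859 CPM per kb over all libraries) and Cd14 (474 CPM per kb) sit far above the other 7 receptors. The Cd5l range of 5xFAD reaches 0, drawn as a triangle at the foot of the axis.

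The first question was how these receptors stand in microglia of mice with amyloid, compared with mice of the same Card9 genotype without the transgenes. Cd68 was higher and Cd36 lower in both comparisons, and both passed an FDR of 0.1 (edgeR's quasi-likelihood test on all 16 libraries, Benjamini-Hochberg adjustment over 14513 genes) once the 2 Card9 genotypes were averaged. In the averaged comparison 4 of the 9 receptors passed: Cd68 rose, and Cd36, Colec12 and Scarf1 fell. In all tested genes, 5.62% were called higher and 5.73% lower in that comparison. In 5xFAD against WT 1 receptor passed, Cd68, where 1.57% of tested genes were called higher and 0.524% lower. In Card9-/-5xFAD against Card9-/- 0 receptors passed, and 1.49% of tested genes were called higher and 0.482% lower. There 4 receptors had an unadjusted p under 0.05, as did 1772 of the 14513 tested genes. DESeq2 called Cd36 and Cd68 in 5xFAD against WT, Cd68 in Card9-/-5xFAD against Card9-/-, and Cd14 beside the same 4 on average. The share of all genes that DESeq2 called was not counted, so these calls cannot be set against the percentages above. Same-numbered libraries with and without the transgenes deviated together within each Card9 genotype in all 8 pairs (r 0.13 to 0.73). The highest r of each comparison joined libraries with the lowest microglia sum of their genotypes. It was 0.71 for replicate 1 of WT and 5xFAD and 0.73 for replicate 4 of Card9-/- and Card9-/-5xFAD. The labels state no pairing, and only 2 of 4 libraries in each comparison were closest to their own number. With that number as a block within each Card9 genotype, a fit added after the data were seen, 4 receptors passed in 5xFAD against WT (Msr1, Cd36, Cd68 and Cd14), 5 in Card9-/-5xFAD against Card9-/- (Msr1, Cd36, Cd68, Colec12 and Scarf1) and these 6 on average. Far more of all genes were called in that fit, 8.93% higher and 7.07% lower in the first, 11.2% and 9.19% in the second and 18.1% and 23.8% on average. That block was chosen from these same data, so its adjusted p-values, here and below, are no independent support. Whether the pairing is real was not tested. The 9 receptors had a median log2 fold change of -0.64 in the first comparison, -0.08 in the second and -0.61 in the average, beside -0.15 for all tested genes in each.

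Cd68 gave the largest rise of the 9. It lies on the minus strand of chromosome 11 (GRCm38, chr11:69664213-69666153), and its exons hold 1257 bases. WT libraries gave 991, 1702, 1944 and 1354 CPM, and 5xFAD libraries gave 4071, 4432, 4839 and 3314 CPM. Every 5xFAD library was above every WT library. Card9-/- libraries gave 1386, 930, 1321 and 578 CPM, and Card9-/-5xFAD libraries gave 2613, 2660, 4083 and 1171 CPM. Here 3 of the 4 transgenic libraries were above all Card9-/- libraries, and replicate 4, which had the fewest reads and the lowest microglia sum, fell among them. Cd68 was 2.78-fold higher in 5xFAD than in WT (log2 fold change 1.48, SE 0.38, adjusted p = 0.0716) and 2.497-fold higher in Card9-/-5xFAD than in Card9-/- (1.32, SE 0.38, adjusted p = 0.120, and 0.00272 with the replicate block within each Card9 genotype). Averaged over both Card9 genotypes, the rise was 1.40 on the log2 scale (SE 0.27, adjusted p = 0.00448), and it passed in all 27 alternatives run for it (log2 fold change 1.25 to 1.61). The call in 5xFAD against WT was less stable: it was lost in 11 of 16 fits that left out a library (adjusted p up to 0.259), namely without any WT library, without Card9-/- replicate 2 or 3, without 5xFAD replicate 1, 2 or 3, or without Card9-/-5xFAD replicate 1 or 2. The log2 fold change stayed between 1.32 and 1.73 in those 16 fits.

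Cd36 went the other way. The gene lies on the minus strand of chromosome 5 (chr5:17781690-17888801, 3590 bases of exon). Its expression was 23.8, 78.1, 67.6 and 56.5 CPM in WT and 10.5, 30.3, 23.0 and 24.7 CPM in 5xFAD. Both ranges overlapped through WT replicate 1, the WT library with the lowest microglia sum. Card9-/- libraries gave 46.4, 66.9, 73.5 and 36.3 CPM, and Card9-/-5xFAD libraries gave 21.3, 26.9, 15.99 and 32.8 CPM. In the Card9-deficient pair the ranges did not overlap. The level was 2.56-fold lower in 5xFAD than in WT (log2 fold change -1.35, SE 0.39, adjusted p = 0.138, and 0.00794 with the block) and 2.31-fold lower in Card9-/-5xFAD than in Card9-/- (-1.21, SE 0.39, adjusted p = 0.180, and 0.0104 with the block). Averaged over both Card9 genotypes it fell by 1.28 on the log2 scale (SE 0.28, adjusted p = 0.0111), and this call also held in all 27 alternatives (-1.43 to -1.05).

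The sequences upstream of Cd68 and Cd36 are shown because these genes changed in opposite directions and were the only receptors called in every alternative of the averaged comparison. Each is the RefSeq window of 250 bases before the annotated start (build GRCm38.p6), for Cd68 chr11:69666171-69666420 and for Cd36 chr5:17835897-17836146, both read 5′ to 3′ on the minus strand. Capitals mark matches to TGANTCA, the AP-1 motif. Cd36 has several annotated starts, and RefSeq's window here covers 1 of them. The bases that follow the Cd68 start were found in an annotated transcript of that gene. Those that follow this Cd36 start were not found in a Cd36 transcript in either orientation, so the Cd36 window could not be checked.
Cd68: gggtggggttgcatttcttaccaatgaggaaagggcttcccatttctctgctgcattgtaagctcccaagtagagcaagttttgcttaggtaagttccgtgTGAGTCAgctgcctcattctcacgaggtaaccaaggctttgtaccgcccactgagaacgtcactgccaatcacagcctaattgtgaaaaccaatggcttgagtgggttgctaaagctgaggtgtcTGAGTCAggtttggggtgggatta
Cd36: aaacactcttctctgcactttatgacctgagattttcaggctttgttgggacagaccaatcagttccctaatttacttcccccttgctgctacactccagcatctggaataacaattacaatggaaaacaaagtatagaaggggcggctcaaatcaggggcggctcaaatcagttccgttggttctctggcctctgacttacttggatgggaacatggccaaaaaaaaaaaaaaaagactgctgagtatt
The Cd68 window held 2 AP-1 matches, TGAGTCA at positions -149 to -143 and -24 to -18 counted from the start, and the Cd36 window held 0. At least 1 match was found in 6.75% of all 32851 windows of this length. On either strand, 4 further motifs were searched in the windows of both genes, without a match: CACGTG (E-box, in 6.02% of all windows), GAGGAAGT (PU.1, 2.44%), GGGAA and TTCC parted by 1 base (NF-kB, 0.283%) and AGGTCA repeated after 1 base (the DR1 element of PPAR receptors, 0.0335%). Motifs could overlap each other, and a match describes letters only. Of the other receptors, Olr1 and Cd5l had a window in the same table, and the Olr1 window held 1 AP-1 match at positions -60 to -54.

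**Figure D2:**
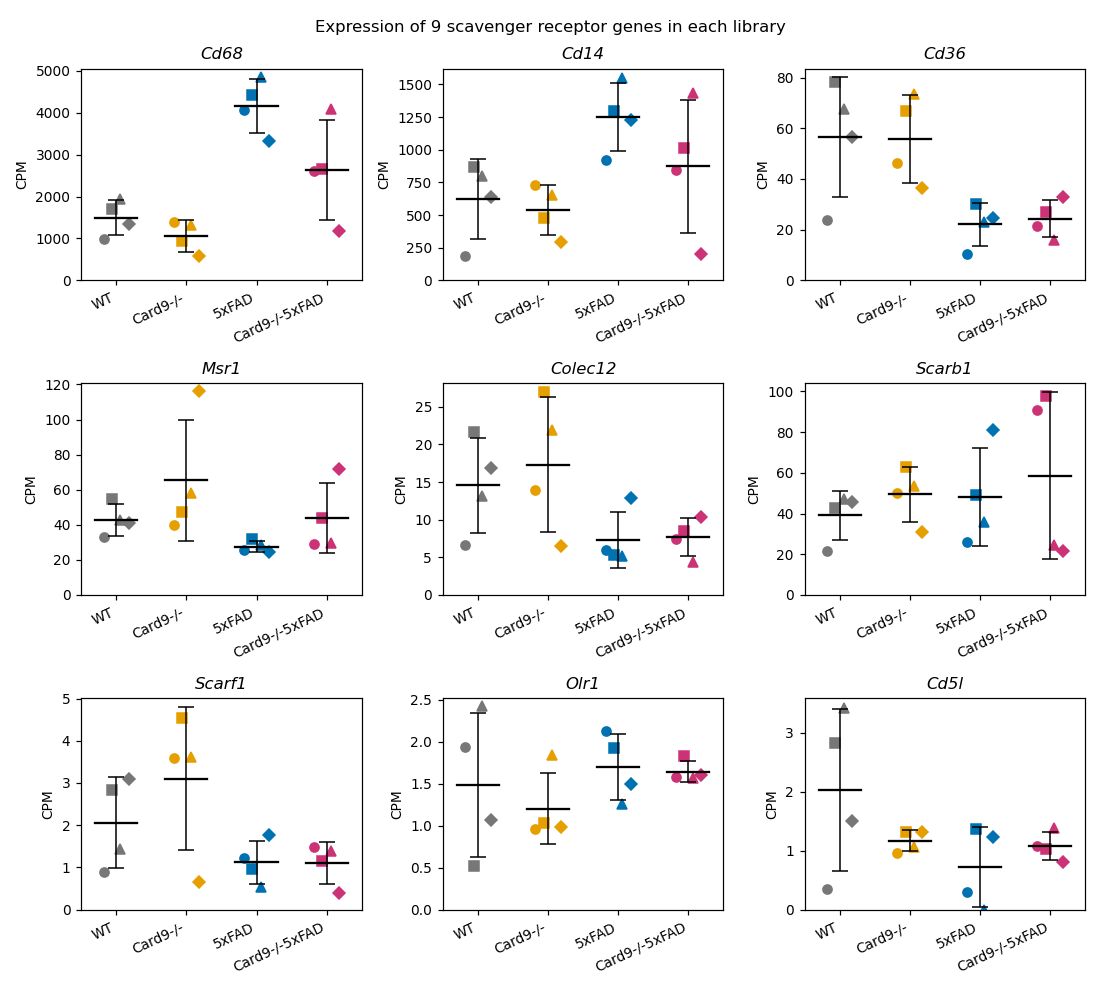
Expression of the 9 receptors (CPM, linear axis from 0) in each of the 16 libraries by genotype. Circles, squares, triangles and diamonds are replicates 1 to 4, horizontal lines are means and bars are SD (n = 4). Cd68 in 5xFAD (3314 to 4839 CPM) lies above WT (991 to 1944 CPM), and Cd36 in Card9-/-5xFAD (15.99 to 32.8 CPM) lies below Card9-/- (36.3 to 73.5 CPM).

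Cd14, which lies on chromosome 18, was higher with the transgenes, as Cd68 was, but did not pass the test without the block. WT libraries gave 185, 864, 797 and 636 CPM, and 5xFAD libraries gave 924, 1296, 1553 and 1231 CPM, without overlap. Card9-/- libraries gave 726, 478, 651 and 297 CPM, and Card9-/-5xFAD libraries gave 842, 1011, 1435 and 202 CPM. Low values in both pairs came from libraries with a low microglia sum, WT replicate 1 and Card9-/-5xFAD replicate 4. Its log2 fold change of 1.01 in 5xFAD against WT had an SE of 0.52 (adjusted p = 0.507, and 0.0388 with the block), and that of 0.70 in Card9-/-5xFAD against Card9-/- had the same SE (adjusted p = 0.641, and 0.333 with the block). On average it was 0.85 (SE 0.37, adjusted p = 0.175), past the threshold in 6 of 27 alternatives, among them the block (adjusted p = 0.0145), DESeq2 (adjusted p = 0.0992) and the fit without Card9-/-5xFAD replicate 4 (adjusted p = 0.0495).

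Colec12, also on chromosome 18, and Scarf1 were the other receptors called lower on average. Colec12 gave 6.69, 21.7, 13.1 and 16.9 CPM in WT and 5.91, 5.35, 5.22 and 12.9 CPM in 5xFAD. It gave 13.9, 27.0, 21.9 and 6.54 CPM in Card9-/- and 7.50, 8.44, 4.34 and 10.4 CPM in Card9-/-5xFAD. Both pairs of ranges overlapped, each through 1 low library without transgenes, WT replicate 1 and Card9-/- replicate 4. Colec12 fell by 1.09 on the log2 scale on average (SE 0.33, adjusted p = 0.0583). Scarf1 (chr11:75513540-75526582, plus strand) was close to the limit of detection, with 1 to 110 reads per library, and its mean was 2.06 ± 1.07 CPM (SD, n = 4) in WT, 3.11 ± 1.69 CPM in Card9-/-, 1.12 ± 0.515 CPM in 5xFAD and 1.10 ± 0.490 CPM in Card9-/-5xFAD. Scarf1 fell by 1.17 on the log2 scale on average (SE 0.40, adjusted p = 0.0930). With the block both passed in Card9-/-5xFAD against Card9-/- as well (Colec12 -1.16, adjusted p = 0.0867, and Scarf1 -1.48, adjusted p = 0.0404). These calls were less firm than those of Cd68 and Cd36. Colec12 lost its call in 7 of 16 fits that left out a library (WT replicate 2 or 4, Card9-/- replicate 2 or 3, 5xFAD replicate 2 or 3, or Card9-/-5xFAD replicate 3), and Scarf1 in 14 of 16, all but those without WT replicate 1 or Card9-/- replicate 4. A covariate that holds each library's trend of expression with transcript length ended both calls (Colec12 -0.65, adjusted p = 0.112, and Scarf1 -0.62, adjusted p = 0.237).

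Msr1 (chr8:39581685-39642673, minus strand) was lower in 5xFAD, where the libraries gave 25.9, 31.7, 28.2 and 24.4 CPM, than in WT, where they gave 32.9, 54.9, 42.5 and 41.3 CPM. These ranges did not overlap, and the difference was -0.64 on the log2 scale (SE 0.35, adjusted p = 0.549, and 0.0546 with the block). Card9-/- libraries gave 39.9, 47.4, 58.1 and 116 CPM and Card9-/-5xFAD libraries gave 29.0, 44.2, 29.9 and 72.1 CPM, with the highest value of each in replicate 4 (log2 fold change -0.58, SE 0.35, adjusted p = 0.538, and 0.0650 with the block). The average of -0.61 (SE 0.25, adjusted p = 0.157) did not pass, except with the block (adjusted p = 0.00511), without Card9-/-5xFAD replicate 4 (adjusted p = 0.0526) and in 3 other alternatives. Among the 9 receptors, those whose ranges did not overlap were Msr1, Cd68 and Cd14 in 5xFAD against WT and Cd36 in Card9-/-5xFAD against Card9-/-, beside 8.04% and 7.01% of all tested genes.

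Scarb1, Olr1 and Cd5l were not called in any comparison, with or without the block. Scarb1 (chr5:125277087-125341094, minus strand) ran from 21.5 to 47.1 CPM in WT, from 30.7 to 63.0 CPM in Card9-/-, from 25.8 to 81.0 CPM in 5xFAD and from 21.6 to 97.8 CPM in Card9-/-5xFAD, so the transgenic groups spread most. Its average log2 fold change was 0.27 (95% interval -0.45 to 0.99). With the length covariate it was 0.65 (adjusted p = 0.0292). Olr1 (chr6:129485244-129507165, minus strand) had 3 to 31 reads per library and 0.513 to 2.43 CPM, and its average was 0.32 (95% interval -0.37 to 1.00). Cd5l (chr3:87357881-87371073, plus strand) had 0 to 33 reads and at most 3.42 CPM, and its average was -0.76 (95% interval -1.82 to 0.29). These intervals reach changes close to 2-fold or larger.

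**Figure D3:**
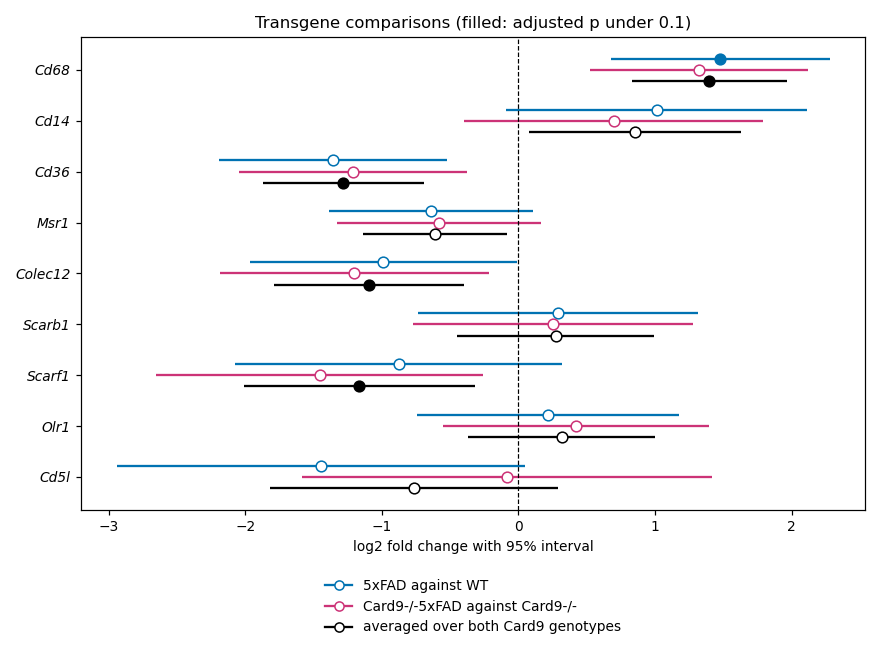
Log2 fold change of each receptor (horizontal axis) with its 95% interval in both transgene comparisons and their average. Filled symbols passed an adjusted p of 0.1, which Cd68 did in 5xFAD against WT (1.48) and on average (1.40), and Cd36 (-1.28), Colec12 (-1.09) and Scarf1 (-1.17) on average.

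The second question was whether Card9 changes these receptors. In Card9-/-5xFAD against 5xFAD, 0 of 14513 genes passed (0%), 366 genes had an unadjusted p under 0.05, and 0 of the 9 receptors did. DESeq2 called 0 of the receptors as well. Ranges overlapped for all 9 receptors, and 1.89% of tested genes had ranges that did not overlap. Cd68 was lower in Card9-/-5xFAD, 2632 ± 1189 CPM against 4164 ± 648 CPM in 5xFAD (SD, n = 4), with a log2 fold change of -0.66 (95% interval -1.45 to 0.13). Cd14 followed with -0.52 (-1.61 to 0.57). Msr1 had the opposite sign, 43.8 ± 20.1 CPM against 27.6 ± 3.17 CPM (SD, n = 4), with a log2 fold change of 0.66 (-0.09 to 1.41). Without the 4 libraries of lowest microglia sum, the difference in Msr1 was 0.28 and that in Cd68 was -0.435. Early response genes are switched on within minutes of a stimulus or of handling. The summed level of 21 of them was 14945 to 18162 CPM with the deletion and 7971 to 14023 CPM without it. These ranges did not overlap, but the sum was not tested, and 0 of the 21 genes were called, as in all tested genes. The part of these genes in the receptor values was not tested. The log2 fold changes of Cd36 (0.13), Scarb1 (0.30), Olr1 (-0.05), Colec12 (0.05), Scarf1 (0.04) and Cd5l (0.54) were smaller than their SE, and the intervals of all 6 reached 0.95 or more on the log2 scale in 1 direction.

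The same was asked in mice without the transgenes. In Card9-/- against WT, 0 genes passed (0%), 597 had an unadjusted p under 0.05, and 0 receptors did, with no receptor called by DESeq2. All 9 receptors overlapped in range, where 2.66% of tested genes did not. The log2 fold change was -0.51 for Cd68 (95% interval -1.29 to 0.28), -0.20 for Cd14 (-1.29 to 0.88), -0.02 for Cd36 (-0.83 to 0.80) and 0.60 for Msr1 (-0.14 to 1.35). The interaction, which tests whether the transgene response differed between the Card9 genotypes, was passed by 0 genes (0%), with 78 at an unadjusted p under 0.05 and 0 receptors among them or called by DESeq2. The block within each Card9 genotype also left 0 genes past the threshold there. For Cd68 it was -0.15 (95% interval -1.26 to 0.95), for Cd36 0.14 (-1.02 to 1.31), for Cd14 -0.32 (-1.86 to 1.22) and for Msr1 0.06 (-0.99 to 1.11). All of these intervals are wide and reach close to a 2-fold difference in response, or beyond it, in each direction.

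**Figure D4:**
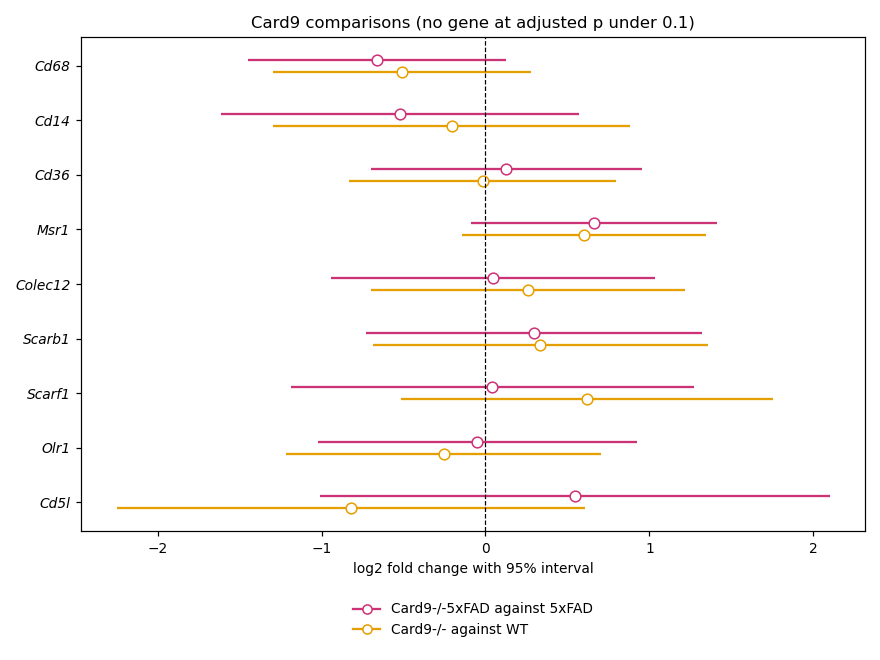
Log2 fold change of each receptor (horizontal axis) with its 95% interval between Card9 genotypes, with and without the transgenes. Every interval crosses 0; Cd68 lies at -0.66 and -0.51, and Msr1 at 0.66 and 0.60.

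The receptors varied together within genotypes to unequal degrees. After each genotype's mean log2 CPM was subtracted, Cd68 and Cd14 had a Pearson r of 0.91 over the 16 libraries, Cd36 and Colec12 0.71, and Msr1 and Scarf1 -0.63. These values are descriptions, since the points share libraries, their depth and their cell mixture. Cd68 was most like Cd9 (r = 0.996), Tecr (0.99) and Bcap31 (0.98), and Cd36 most like Serpinb8 (0.97), Rnf146 (0.92) and Chst7 (0.91). The genes most like Colec12 were Fli1 (0.93), Ggta1 (0.92) and Tox4 (0.92), and those most like Scarf1 were Sncaip (0.96), Prickle3 (0.93) and Med23 (0.92). Within genotypes the summed microglia markers had r = 0.70 with Cd68, 0.85 with Cd14, 0.61 with Cd36 and -0.33 with Msr1. The sum of border-associated macrophage markers had r = -0.68 with Cd68, -0.19 with Cd36, -0.28 with Colec12 and 0.65 with Msr1. These values were not particular to that cell type. Msr1 had r = 0.83 with the neuron sum, 0.76 with the endothelial sum and 0.67 with the neutrophil sum. Cd68 had r = -0.75 with the neutrophil sum and -0.72 with the endothelial sum. Scarf1 had r = -0.87 with the neutrophil sum and -0.76 with the endothelial sum.

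Markers of border-associated macrophages moved with the comparison in which Cd36 and Colec12 were lower. Of the 9, all of which were tested, 3 were called lower in 5xFAD against WT, 1 in Card9-/-5xFAD against Card9-/- and 5 on average, where their median log2 fold change was -1.04, and none of the 9 was at 0 in a genotype. Of the other cell types on average, 2 of 8 neutrophil, 1 of 6 tested monocyte, 1 of 8 endothelial and 1 of 4 tested pericyte or fibroblast markers were called lower, 2 of 6 astrocyte markers were called higher, and 0 of 10 microglia markers were called (median 0.01). The highest sums were in Card9-/- replicate 4 (1952 CPM), Card9-/-5xFAD replicate 4 (1839 CPM) and WT replicate 1 (1746 CPM). These 3 libraries also had the lowest microglia sum of their genotypes. Card9-/- replicate 4 and WT replicate 1 had 36.3 and 23.8 CPM of Cd36. The other 6 libraries without transgenes had 46.4 to 78.1 CPM. Card9-/-5xFAD replicate 4 had 32.8 CPM, the highest Cd36 of the transgenic libraries (10.5 to 32.8 CPM). Msr1 was highest in both replicate 4 libraries (116 CPM in Card9-/- and 72.1 CPM in Card9-/-5xFAD). In bulk RNA, fewer cells of a type and less RNA per cell cannot be told apart, and the part of these cells in the results was not tested. Without the 4 libraries of lowest microglia sum, left out after the data were seen, Cd36 and Cd68 passed in both transgene comparisons (Cd36 -1.34, adjusted p = 0.0104, and -1.51, adjusted p = 0.00426; Cd68 1.37, adjusted p = 0.0114, and 1.39, adjusted p = 0.00812). Cd14 passed in both as well, and Colec12 and Scarf1 in Card9-/-5xFAD against Card9-/-, for 3 and 5 receptors in all. The share of all tested genes called in that fit was not counted, so these counts cannot be set against it.

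**Figure D5:**
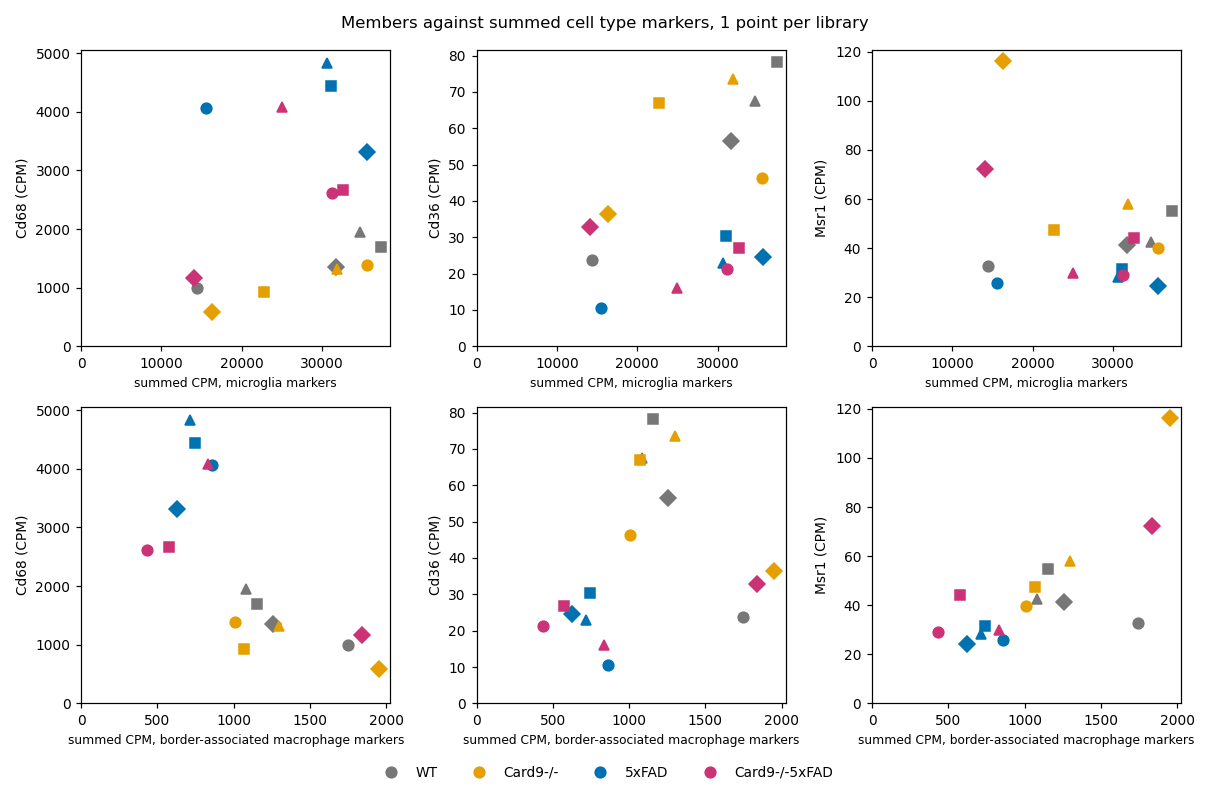
Cd68, Cd36 and Msr1 (CPM, vertical axes) against the summed CPM of microglia markers (upper row) and of border-associated macrophage markers (lower row), 1 symbol per library, with circles, squares, triangles and diamonds for replicates 1 to 4. The 3 libraries with the highest border-associated macrophage sums (1746 to 1952 CPM) have 23.8 to 36.3 CPM of Cd36, and 2 of them have the highest Msr1 (72.1 and 116 CPM). Among these 3, Card9-/-5xFAD replicate 4 has the highest Cd36 of the transgenic libraries (32.8 CPM).

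Other scavenger receptors were called in both directions. Of 18 listed, 10 were tested, 2 were called higher and 1 lower in 5xFAD against WT, and 2 higher and 3 lower on average (median log2 fold change -0.18). With the block these same 5 genes were called in both transgene comparisons. Of all tested genes, that fit called 8.93% higher and 7.07% lower in the first and 11.2% and 9.19% in the second. Clec7a, the beta-glucan receptor dectin-1, rose by 3.37 (SE 0.37, adjusted p = 0.000101) in 5xFAD against WT and by 3.31 (SE 0.37, adjusted p = 0.000136) in Card9-/-5xFAD against Card9-/-. Cxcl16, whose membrane form binds oxidized LDL, rose by 1.28 (SE 0.35, adjusted p = 0.0967) in the first. All changes in this and the next 3 paragraphs are on the log2 scale. The mannose receptor Mrc1 was called lower in both, -1.20 (SE 0.28, adjusted p = 0.0369) and -1.28 (SE 0.28, adjusted p = 0.0313). Stab1, a receptor for acetylated LDL, and Cd163, the hemoglobin scavenger receptor, were called lower on average, -1.13 (SE 0.26, adjusted p = 0.0143) and -1.30 (SE 0.28, adjusted p = 0.0114). Mrc1 and Cd163 are also among the border-associated macrophage markers. Scarb2, the lysosomal relative of CD36, changed by 0.24 on average (SE 0.18, adjusted p = 0.443), and Marco and Megf10, with at most 3 reads in a library, were not tested.

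Receptors of amyloid from other families included larger changes. Of 15, all tested, 4 were called higher and 0 lower in each transgene comparison: Itgax, the alpha subunit CD11c of a leukocyte integrin, the lipid and amyloid receptor Trem2, the kinase Axl and Clec7a. Trem2 rose from 1628 ± 198 CPM in WT to 4226 ± 1097 CPM in 5xFAD (SD, n = 4; log2 fold change 1.38, SE 0.31, adjusted p = 0.0340) and from 1049 ± 292 CPM in Card9-/- to 2818 ± 995 CPM in Card9-/-5xFAD (1.43, SE 0.31, adjusted p = 0.0347). Itgax rose by 3.98 (SE 0.34, adjusted p = 7.49e-06) and 3.67 (SE 0.33, adjusted p = 1.21e-05). On average the formyl peptide receptor Fpr1 was called lower (-1.13, SE 0.24, adjusted p = 0.0105). The median log2 fold change of the 15 was -0.17 and -0.26. With the block 9 were called in 5xFAD against WT, 7 in Card9-/-5xFAD against Card9-/- and 10 on average. Of all tested genes, that fit called 8.93% higher and 7.07% lower in the first, 11.2% and 9.19% in the second and 18.1% and 23.8% on average.

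Few coreceptors and signaling partners of CD14 and CD36 were called without the block. Of 23 listed, 22 were tested, and 1 was called in each transgene comparison, the tetraspanin Cd9, which associates with CD36 at the membrane (log2 fold change 1.74, SE 0.43, adjusted p = 0.0547, and 1.59, SE 0.43, adjusted p = 0.0941). On average Cd9 was called higher and the adaptor Tirap lower (-0.63, SE 0.19, adjusted p = 0.0661). Tlr4, the signaling receptor that CD14 serves, changed by -0.77 on average (SE 0.29, adjusted p = 0.125) and its partner Ly96 by 0.56 (SE 0.50, adjusted p = 0.537). Tlr2 changed by 0.41 (SE 0.27, adjusted p = 0.394) and Tlr6, which acts with TLR4 and CD36, by -0.56 (SE 0.25, adjusted p = 0.189). With the block 4 partners were called in 5xFAD against WT, among them Tlr4, 6 in Card9-/-5xFAD against Card9-/-, among them Ly96 and Tlr6, and 14 on average, Tlr4, Ly96 and Tlr6 included. In that fit 8.93% of all tested genes were called higher and 7.07% lower in the first, 11.2% and 9.19% in the second and 18.1% and 23.8% on average.

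Among lipoprotein receptors and their helpers, 8 of 11 were tested, and 2 were called higher and 0 lower in each transgene comparison. Lpl, the lipase that frees fatty acids from lipoproteins, rose by 4.61 (SE 0.33, adjusted p = 7.35e-07) in 5xFAD against WT and by 4.10 (SE 0.32, adjusted p = 3e-06) in Card9-/-5xFAD against Card9-/-. Lrpap1, a chaperone of lipoprotein receptors, rose by 1.59 (SE 0.30, adjusted p = 0.0111) and 1.17 (SE 0.30, adjusted p = 0.0770). Lrp1, a large endocytic receptor, changed by -0.16 on average (SE 0.35, adjusted p = 0.813). Of 13 lipid-sensing regulators, 11 were tested, and 1 was called lower on average. It was Pparg, a nuclear receptor known to activate Cd36, which had at most 60 reads in a library and fell by 1.43 (SE 0.31, adjusted p = 0.0111). Pparg stood at 4.05 ± 0.952 CPM in WT, 1.77 ± 0.502 CPM in Card9-/-, 1.39 ± 0.595 CPM in 5xFAD and 0.757 ± 0.353 CPM in Card9-/-5xFAD (SD, n = 4). With the block Pparg was called in both transgene comparisons. The LXR gene Nr1h3 changed by -0.33 (SE 0.28, adjusted p = 0.517). In both comparisons between Card9 genotypes and in the interaction, 0 genes of these lists passed, as in all tested genes.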

How the data were processed

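Read counts per gene were measured in 16 libraries of CD11b+ brain cells. The authors aligned reads to mm10 with HISAT2, filtered them with Samtools and counted them on genes with HTSeq, and they deposited raw counts without normalization. Versions, annotation and strand setting are not given in the sources used here.

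Counts were tested in R 4.3.3 with edgeR 4.0.16 (quasi-likelihood, TMM, filterByExpr with a minimum count of 10, all libraries in 1 fit of 4 groups without covariates, Benjamini-Hochberg adjustment, FDR 0.1). DESeq2 1.42.0 was an alternative. Between 2970148 and 19333325 reads per library set the precision. The SE of a log2 fold change comes from its F statistic, and 95% intervals use the t distribution of the fit. The steps were tested on simulated data. Same-numbered libraries deviated together within each Card9 genotype (r 0.27 to 0.71 for WT with 5xFAD, 0.13 to 0.73 for Card9-/- with Card9-/-5xFAD). This pairing was seen in the data and is not stated in the labels. Across Card9 genotypes, same-numbered pairs had both signs (r -0.71 to 0.61), and some exceeded the lowest r within a Card9 genotype. A block was fitted within each Card9 genotype only. No pair of libraries of 1 genotype agreed within sampling noise (chi-square per degree of freedom at least 6.18). Exon lengths and positions come from GENCODE M21; no gene shares exon bases with the 9 receptors in it. RefSeq's promoter table held 4 of the 9.

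All 9 receptors are named. Listed genes are named where called in a transgene comparison (at most 4 per list and comparison) or where chosen as partners, as are the 3 genes most like each called receptor. Receptors, lists and partners were chosen with earlier results of these data known. Leaving out 4 or 2 libraries, that block and the length covariate (93.4% of tested genes had a length), were chosen after seeing the data. A few listed genes are not reported here by name.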

Additional observations from a re-analysis of the deposited data

Results flagged for a closer look

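Values of 9 receptors and 11 marker lists were looked at in each of 4 genotypes, 80 sets of 4 libraries, for a library whose gap to its nearest neighbour took more of the whole range than Dixon's 95% critical value for 4 samples allows. Chance alone gives about 1 in 20 such sets, and 10 were found.

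Among the receptors, Colec12 in 5xFAD replicate 4 (12.9 CPM) stood above the other 5xFAD libraries (5.22 to 5.91 CPM). Olr1 was far from its group in Card9-/- replicate 3 (1.84 CPM against 0.961 to 1.03 CPM) and in Card9-/-5xFAD replicate 2 (1.83 CPM against 1.56 to 1.60 CPM), at read counts of 31 or fewer.

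Most of the other libraries set apart were replicate 4 of the Card9-deficient genotypes, by markers of cells other than microglia. Summed neutrophil markers were 6322 CPM in Card9-/- replicate 4 (1147 to 1207 CPM in the others) and 5988 CPM in Card9-/-5xFAD replicate 4 (496 to 835 CPM in the others). Endothelial markers were 294 CPM and 110 CPM in the same libraries, against at most 67.8 and 53.4 CPM in the others of their genotypes. Choroid plexus markers reached 2499 CPM in Card9-/- replicate 4, and monocyte markers 316 CPM in Card9-/-5xFAD replicate 4. Oligodendrocyte markers were highest in Card9-/-5xFAD replicate 3 (358 CPM against 152 to 178 CPM). No receptor's transgene response differed between the Card9 genotypes by the interaction test.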

How the results depend on the processing

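Over 28 alternatives, Cd68 and Cd36 were called on average in each of the 27 that apply, and 3 of 27 transgene fold changes changed sign, those of Olr1, Scarb1 and Cd5l. The cause of a change was not tested. Few reads limit Scarf1, Olr1 and Cd5l.

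In 5xFAD against WT, the count of called receptors went from 1 to 0 with no filter on low counts (more genes tested) and at an FDR of 0.05, to 2 with DESeq2, with the length covariate and without the 2 libraries of lowest total, and to 3 without the 4 libraries of lowest microglia markers. It was 0 to 1 when 1 library was left out. In Card9-/-5xFAD against Card9-/- it went from 0 to 1 with DESeq2 and the length covariate, to 3 without the 2 libraries and to 5 without the 4, and was 0 to 3 when 1 library was left out; without Card9-/- replicate 4 it was 3 (Cd36, Colec12 and Scarf1), and without WT replicate 1 or Card9-/-5xFAD replicate 4 it was 1 (Cd68). On average it went from 4 to 2 at an FDR of 0.05, to 6 without the 4 or the 2 libraries and to 5 with the length covariate and DESeq2, and was 2 to 5 when 1 library was left out. The share of all tested genes called was not counted in these alternatives, so the counts cannot be set against it.

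Over all 6 pairings of genotypes, replicate numbers did not pair the libraries: of 24 pairs with the same number, 15 correlated above 0.1 (r -0.71 to 0.73) and in 7 a library correlated best with its own number. Within each Card9 genotype all 8 pairs were above 0.1. The replicate block within each Card9 genotype gave 4, 5 and 6 receptors in the comparisons above. With a replicate block shared by all genotypes, 2 receptors (Cd36 and Cd68) were called in 5xFAD against WT and 1 (Cd68) in Card9-/-5xFAD against Card9-/-, Scarf1 lost its average call (adjusted p = 0.129), and Cd36 in Card9-/- against WT turned to 0.078.

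Signs turned mainly in differences near 0. In Card9-/-5xFAD against 5xFAD, Colec12 gave -0.02 with no filter, -0.043 with at least 10 counts in every library, 0 with DESeq2 and -0.006 in a fit of only the groups compared. Without the 4 libraries, this comparison gave -0.29 for Cd36, 0.073 for Olr1 and -0.21 for Colec12; without the 2 libraries, -0.05 for Cd36 and -0.12 for Colec12; with the length covariate, -0.018 for Cd36, -0.29 for Scarb1, 0.067 for Olr1, -0.23 for Colec12 and -0.38 for Scarf1. Cd5l in Card9-/-5xFAD against Card9-/- gave 0.052 without the 4, 0.058 without the 2 and 0.12 with the length covariate. Cd36 in Card9-/- against WT gave 0.14 without the 2. The interaction gave 0.021 for Cd68 and -0.17 for Cd36 without the 4, and -0.19 for Cd36 without the 2.

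Leaving out 1 library gave -0.083 to 0.58 for Olr1 in 5xFAD against WT, and -0.11 to 0.53 for Scarb1 and -0.22 to 0.073 for Cd5l in Card9-/-5xFAD against Card9-/-. In Card9-/-5xFAD against 5xFAD it gave -0.12 to 0.31 for Cd36, -0.067 to 0.57 for Scarb1, -0.25 to 0.066 for Olr1, -0.12 to 0.30 for Colec12 and -0.18 to 0.24 for Scarf1. In Card9-/- against WT it gave -0.27 to 0.18 for Cd36. The interaction ran from -0.45 to 0.092 for Cd68, -0.66 to 0.016 for Cd14, -0.10 to 0.40 for Cd36 and -0.27 to 0.48 for Msr1.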

Other observations

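Of 15 genes that carry or store lipid, all tested, 3 were called higher and 0 lower in 5xFAD against WT and in Card9-/-5xFAD against Card9-/-, and 4 higher and 0 lower on average, with a median log2 fold change of 0.31, 0.17 and 0.22. Fabp3, a fatty acid binding protein, went from 1.70 ± 0.861 CPM in WT to 102 ± 46.8 CPM in 5xFAD and from 1.06 ± 0.836 CPM in Card9-/- to 68.0 ± 15.6 CPM in Card9-/-5xFAD (SD, n = 4), a rise of 5.91 (SE 0.53, adjusted p = 9.2e-06) and 6.26 (SE 0.55, adjusted p = 9.99e-06) on the log2 scale. Its relative Fabp5 rose by 4.91 (SE 0.87, adjusted p = 0.00613) and 4.86 (SE 0.87, adjusted p = 0.00766). Npc2, which binds cholesterol in lysosomes, rose by 1.33 (SE 0.28, adjusted p = 0.0198) and 1.22 (SE 0.28, adjusted p = 0.0421). Plin2, a coat protein of lipid droplets, was called higher on average (0.83, SE 0.27, adjusted p = 0.0782). The other 11 did not pass, and their average changes had both signs. With the replicate number as a block within each Card9 genotype, 4, 7 and 9 of the 15 were called.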
